A study of Mus musculus with 19 samples.

Results

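The response of the spleen to oil palm phenolics (OPP), set against that of the heart, was measured as 1 value per probe: the log2 difference between the AD + OPP and AD + DW groups in the spleen minus the same difference in the heart, called the interaction here. A positive interaction means that the spleen effect lay above the heart effect, and a negative one that it lay below. It used 12 of the 19 Illumina MouseRef-8 arrays of the series, 3 in each of 4 groups, and 5092 of the 24048 probes. These were the probes that, in both organs, every array of at least 1 group detected (detection p under 0.01). The choice did not compare the groups, but a probe could enter through only the group where it was high. All mice were male BALB/c mice labelled as 12 weeks old and were given an atherogenic diet, high in fat and cholesterol, over 6 weeks. The AD + OPP group drank OPP, a water-soluble extract from oil palm fruit processing, at 1500 ppm gallic acid equivalents (GAE), and the AD + DW group drank distilled water. No group on a normal diet was analysed here, and BALB/c mice are a limited model of atherosclerosis. Several mice shared a cage and the labels do not give the cage, so a cage effect cannot be told apart from that of OPP. The labels number the arrays as replicates without naming animals, so the p-values measure only the spread between these arrays.

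The spleen filters blood and holds lymphocytes, macrophages and, in mice, blood-forming cells that include neutrophil precursors. The heart is mostly muscle by mass, with resident macrophages, endothelium and fibroblasts between the muscle cells. Glycolysis breaks glucose down to pyruvate, and the pentose phosphate pathway draws off its first intermediate to make NADPH, which keeps glutathione reduced. Macrophages clear dying cells and, with dendritic cells and B cells, present peptides on major histocompatibility complex (MHC) class II molecules to T cells. In whole organs, fewer cells of a type and less RNA per cell cannot be told apart.

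Before any comparison, the arrays were examined for signals that did not belong to the organ. The 15 measured genes of exocrine pancreas, which encode digestive enzymes, were all detected on 3 of the 6 spleen arrays, namely AD + OPP replicate 1 and AD + DW replicates 1 and 3. Their summed signal was 266219, 533 and 540 in AD + OPP spleens, against 349651, 572 and 995723 in AD + DW spleens, which was 4.21, 5.63 and 11.1% of all signal on the 3 arrays concerned. At most 2 of the 15 were detected on the other spleen arrays, and 0 on any heart array, where the sums were 126 to 251. Spleen AD + DW replicate 3 also had the fewest probes detected (5863, against 7234 to 7524 on the other spleen arrays) and formed a cluster of its own. It alone carried the skin genes Lor at 8131 and Krt10 at 1688, both picked out after their values were seen. Among the hearts, 6554 to 7576 probes were detected per array, and AD + DW replicate 2 clustered with the AD + OPP arrays. Heart muscle markers summed to 517266 to 637643 in the hearts and to 1890 to 3379 in the spleens. Of these 31 markers, 23 were detected on no spleen array, and Ryr2 was the 1 detected on no heart array. The part of the pancreatic signal in the results below was not tested, and most list medians and the genes with the smallest p are given with all 6 spleens, with only the 3 spleens that carried it and with only the 3 that did not. Spleen and heart signals were normalized separately, so levels are compared within an organ only.

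Sums of white blood cell markers differed between groups as well. The 6 neutrophil primary granule genes, made in neutrophil precursors, summed to 54281, 47181 and 44509 in AD + OPP spleens, against 7735, 22500 and 8084 in AD + DW spleens, and none was detected in a heart. The 26 secondary and tertiary granule genes summed to 165539, 172846 and 156787 in AD + OPP spleens and to 52271, 118145 and 58397 in AD + DW spleens, so these groups did not overlap. In the hearts they summed to 28339, 8570 and 9395 with AD + OPP and to 1522, 17428 and 2078 with AD + DW, where replicate 2 lay among the AD + OPP arrays. B cell markers summed to 4591, 6219 and 6116 in AD + OPP spleens, below the 11010, 8688 and 10038 of the AD + DW spleens, and T and natural killer cell markers to 4030, 5281 and 4735 against 9248, 5843 and 8118. The panels of marker sums by array show these groups side by side.

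**Figure D1:**
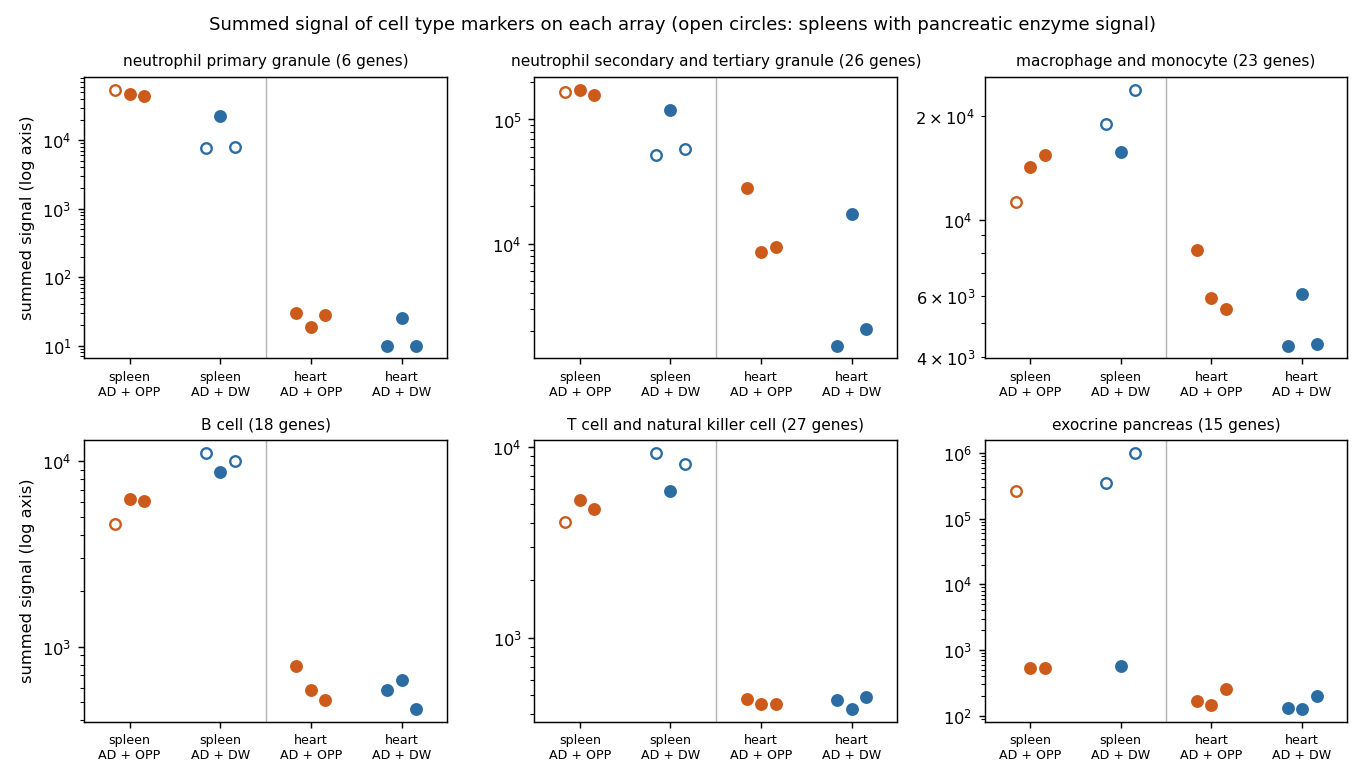
Summed normalized signal of the markers of 6 cell types on each of the 12 arrays (vertical log axis; sums under 10 are drawn at 10), with orange for AD + OPP, blue for AD + DW and open circles for the 3 spleens with pancreatic enzyme signal. The AD + OPP spleens lay above the AD + DW spleens in both neutrophil panels and below them in the B cell and T cell panels, and pancreas sums reached 266219 or more on 3 spleens only.

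With all 12 arrays, no probe passed an adjusted p of 0.05 for the interaction in limma (0 of 5092, 0%), and the smallest adjusted p was 0.107. At an unadjusted p under 0.01 there were 195 probes (3.83%), of which 103 were higher (2.02%) and 92 lower (1.81%), and at an unadjusted p under 0.05 there were 561 (11%). The same probes within the spleen gave 302 at an unadjusted p under 0.01 (5.93%) and 779 under 0.05 (15.3%), and within the heart 21 (0.412%) and 168 (3.3%), with 0 past the adjusted threshold in either organ and smallest adjusted p values of 0.0533 and 0.999. AD + OPP and AD + DW arrays did not overlap for 1102 probes in the spleen (21.6%) and for 388 in the heart (7.62%). Over all tested probes the median interaction was −0.08, and 3013 of them (59.2%) lay below 0. Of the 195 probes, 184 had the larger absolute effect in the spleen (94.4%, against 72.1% of all tested probes), and 131 had effects of opposite sign in the organs. Choosing probes by the difference favours opposite signs, and their share among all tested probes was not counted. The 131 are therefore not read as opposite responses of the organs.

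These counts rested on the arrays and the scaling. The adjusted count was 103 without spleen AD + DW replicate 2, the only AD + DW spleen without pancreatic signal, and 322 probes then had an unadjusted p under 0.01, against at most 1 adjusted call when any other single array was left out. Within the 3 spleens with pancreatic signal, 1 AD + OPP and 2 AD + DW arrays, 294 probes passed the adjusted threshold, 75 of them higher. Within the 3 without it, 2 AD + OPP and 1 AD + DW arrays, 0 passed and 84 had an unadjusted p under 0.01 (53 higher and 31 lower). Without spleen AD + DW replicate 3, which clustered apart, 0 passed and 107 were higher and 56 lower. Without it and heart AD + DW replicate 2, 0 passed and 79 were higher and 60 lower. The fits within 3 spleens take the lone array to vary like the other groups. Quantile normalization and neqc, which also corrects the background, of the unnormalized signal gave 27 and 2 adjusted calls, and divided the probes of unadjusted p under 0.01 into 139 higher and 75 lower and into 137 higher and 71 lower. Those 2 scalings moved the median interaction of all tested probes to 0.02 and 0.03.

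**Figure D2:**
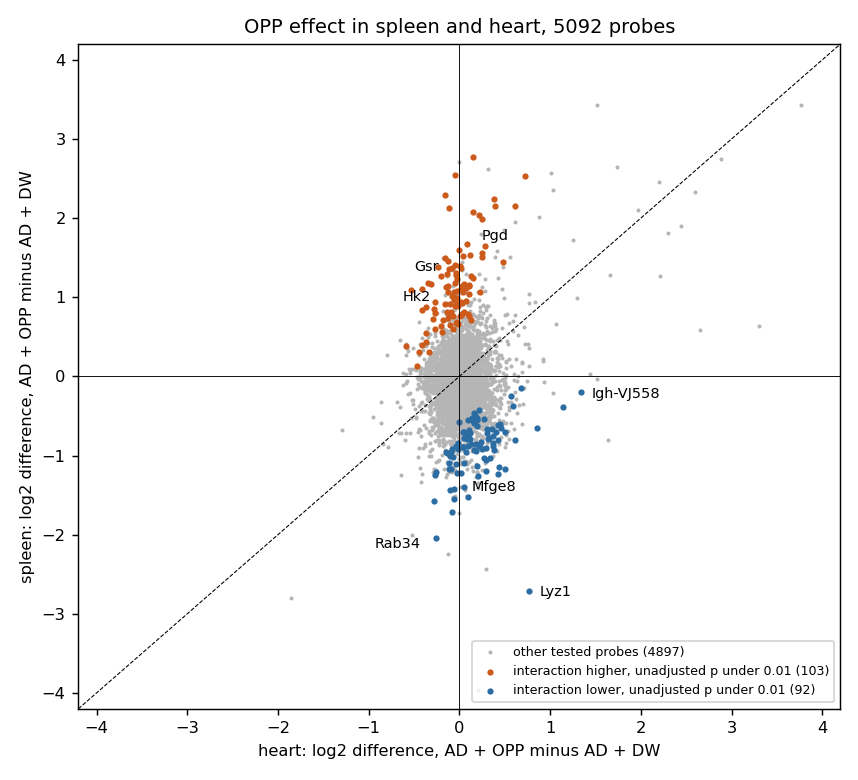
OPP effect in the spleen (vertical axis) against that in the heart (horizontal axis), each as log2 of AD + OPP minus AD + DW, for the 5092 probes; the dashed line marks equal effects. Most of the 103 orange and 92 blue probes, those with an unadjusted interaction p under 0.01, lay above and below 0 on the spleen axis while near 0 on the heart axis.

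Genes of glucose use were among those with a positive interaction. Of 14 glycolysis genes tested, 12 had an interaction above 0 (against 40.8% of all tested probes) and 7 had an unadjusted p under 0.01, all of these higher (against 2.02% of all), with a median of 0.93 for the interaction, 0.85 for the spleen effect and −0.05 for the heart effect. The median over all tested probes was −0.08, −0.07 and 0.01 for the same measures. None of the 14 passed the adjusted threshold. The median interaction of the list was 1.24 within the spleens with pancreatic signal and 0.46 within those without it. Neutrophil granule sums, given above, were highest on the same AD + OPP spleens, and their part in these values was not tested.

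Hk2 encodes hexokinase 2, which traps glucose in the cell as glucose 6-phosphate. Its signal was 520, 462 and 420 in AD + OPP spleens, against 176, 289 and 189 in AD + DW spleens. In the hearts it read 2917, 2964 and 2918 with AD + OPP and 3412, 3178 and 3196 with AD + DW. The groups did not overlap in either organ, and they were ordered in opposite ways. The interaction was 1.28 ± 0.25 (SE, n = 3 arrays per group; limma adjusted p = 0.108), from a spleen effect of 1.13 ± 0.22 and a heart effect of −0.15 ± 0.11.

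Gpi1 encodes the isomerase that follows hexokinase in glycolysis. It read 2663, 2300 and 2303 in AD + OPP spleens, against 750, 1287 and 975 in AD + DW spleens. AD + OPP hearts had signals of 2818, 2160 and 2418, against 2544, 2413 and 2580 in AD + DW hearts, so the groups overlapped there. The interaction was 1.34 ± 0.26. Pkm, which encodes the pyruvate kinase of the last step, read 4497, 3293 and 2979 in AD + OPP spleens and 1070, 1975 and 1019 in AD + DW spleens. Heart signals were 4466, 4672 and 3882 with AD + OPP, against 4011, 5956 and 4421 with AD + DW. Its spleen groups were apart and its heart groups overlapped, for an interaction of 1.58 ± 0.36 (limma adjusted p = 0.118). Enzymes of other steps had interactions of 1.08 for Aldoa, 0.93 for the brightest Gapdh probe, 0.94 for Pgk1 and 1.27 for Eno1, all at an unadjusted p under 0.01, and of 0.70 for Tpi1, which was not. Slc2a1, the glucose transporter of the same list, was at −0.53, or at −0.24 without heart AD + DW replicate 1 and −0.35 without spleen AD + OPP replicate 2 or spleen AD + DW replicate 1.

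In the pentose phosphate and NADPH list, 7 of 8 genes had an interaction above 0 (against 40.8% of all tested probes) and 2 had an unadjusted p under 0.01 (against 2.02% higher of all), with a median of 0.26. Pgd, the gene of 6-phosphogluconate dehydrogenase, which makes NADPH, gave the smallest p of them. Its signal was 5807, 4404 and 4622 in AD + OPP spleens, against 1342, 2219 and 1615 in AD + DW spleens. In the hearts it read 756, 596 and 606 with AD + OPP and 616, 548 and 629 with AD + DW. The spleen groups lay well apart and the heart groups overlapped, and the interaction was 1.42 ± 0.27 (95% interval 0.83 to 2.01; limma adjusted p = 0.108). It was 1.86 within the spleens with pancreatic signal and 0.90 within those without it. Tkt, the transketolase that returns pentoses to glycolysis, read 8571, 7271 and 6929 in AD + OPP spleens and 3939, 4357 and 3754 in AD + DW spleens, and 840, 519 and 639 in AD + OPP hearts against 772, 610 and 816 in AD + DW hearts. Its groups were apart in the spleen only, for an interaction of 1.07 ± 0.26.

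The glutathione and antioxidant list did not lean the same way, with 10 of 26 genes above 0, 16 below (against 59.2% of all tested probes) and a median of −0.24. It held 1 gene in each direction at an unadjusted p under 0.01, and at an unadjusted p under 0.05 it held 3 higher and 6 lower. The lower of the pair was Prdx2, a peroxidase gene, at −0.57 ± 0.18. Its signal was 5854, 5405 and 5074 in AD + OPP spleens, against 7203, 8432 and 8856 in AD + DW spleens, while the heart groups overlapped. Gsr, which encodes glutathione reductase and spends NADPH, was the higher. It read 1904, 1764 and 1705 in AD + OPP spleens, against 526, 931 and 675 in AD + DW spleens. AD + OPP hearts had signals of 400, 414 and 453, against 406, 454 and 391 in AD + DW hearts. The spleen groups were apart while the heart groups lay on each other, and the interaction was 1.35 ± 0.26 (limma adjusted p = 0.108). Gstm1, a glutathione transferase gene, was at 1.07 ± 0.41 and Gstp1, of another class of the same enzymes, at −0.75 ± 0.34, or at −0.40 without spleen AD + DW replicate 3.

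Promoters of 4 genes are shown because the genes differ in how the organs compared: Hk2 with opposite order in the organs, Pgd with an order in the spleen only, Mgst1 with the same order in both and Lyz1 with the largest negative value. They run from 250 bases before the RefSeq start to 50 after it, 5′ to 3′ on the strand of the gene, in RefSeq's GRCm38.p6 build. Capitals mark matches on either strand to ACGTG, the core letters of the hypoxia response element, or to TGACNNNGC, those of the antioxidant response element, and the motifs and genes were chosen after the values were seen.
Hk2 (chr6:82774405-82774704, minus strand): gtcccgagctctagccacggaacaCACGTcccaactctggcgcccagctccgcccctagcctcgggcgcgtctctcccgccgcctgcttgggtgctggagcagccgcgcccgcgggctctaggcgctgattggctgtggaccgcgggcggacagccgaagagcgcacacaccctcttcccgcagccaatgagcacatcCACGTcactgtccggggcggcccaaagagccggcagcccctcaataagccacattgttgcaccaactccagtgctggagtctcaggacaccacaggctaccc
Pgd (chr4:149166656-149166955, minus strand): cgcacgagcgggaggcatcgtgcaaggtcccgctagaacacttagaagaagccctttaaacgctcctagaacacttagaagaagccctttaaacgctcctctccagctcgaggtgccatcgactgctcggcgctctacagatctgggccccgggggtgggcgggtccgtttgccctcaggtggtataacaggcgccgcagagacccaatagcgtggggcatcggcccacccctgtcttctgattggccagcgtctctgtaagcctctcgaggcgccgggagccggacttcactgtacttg
Mgst1 (chr6:138140277-138140576, plus strand): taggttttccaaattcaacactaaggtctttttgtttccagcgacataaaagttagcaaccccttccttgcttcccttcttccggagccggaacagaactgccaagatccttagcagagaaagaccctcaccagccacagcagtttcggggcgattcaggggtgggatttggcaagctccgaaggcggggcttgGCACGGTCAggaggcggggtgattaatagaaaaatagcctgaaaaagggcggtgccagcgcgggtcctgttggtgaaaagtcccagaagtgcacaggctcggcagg
Lyz1 (chr10:117292819-117293118, minus strand): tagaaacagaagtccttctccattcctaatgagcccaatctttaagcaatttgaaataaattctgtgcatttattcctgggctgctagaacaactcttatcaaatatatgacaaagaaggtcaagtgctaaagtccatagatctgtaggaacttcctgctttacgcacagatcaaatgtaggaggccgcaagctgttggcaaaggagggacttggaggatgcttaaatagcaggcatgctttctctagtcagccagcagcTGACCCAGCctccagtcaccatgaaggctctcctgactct
The matches are of ACGTG in Hk2, at 2 places, and of TGACNNNGC in Mgst1 and Lyz1, 1 each. ACGTG was found in 5314 of 27018 promoters of this length (19.7%) and TGACNNNGC in 3369 (12.5%). Of the 14 glycolysis promoters, 8 held ACGTG and 0 held TGACNNNGC, and of the 8 pentose phosphate promoters, 0 held ACGTG and 1, that of Me1, held TGACNNNGC. A match is a description of letters and not of a bound site.

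Outside these pathways the largest positive interactions by p were spread over other functions. Fam160a2 had the smallest p of those, with 518, 501 and 494 in AD + OPP spleens and 238, 218 and 142 in AD + DW spleens, against 249, 237 and 271 in AD + OPP hearts and 294, 251 and 256 in AD + DW hearts. Only the spleen groups were apart, for an interaction of 1.45 ± 0.25. The Fam160a2 probe was not among those detected on every array, and its AD + DW spleen signals went down to 142. It may have passed the spleen filter through the AD + OPP arrays alone, where it was high. How far that filter set its spleen effect was not tested. Alas1, the gene of the first enzyme of heme synthesis in most tissues, read 6527, 5784 and 5360 in AD + OPP spleens and 1695, 2840 and 1792 in AD + DW spleens. Heart signals were 4273, 4034 and 5083 with AD + OPP, against 4576, 3733 and 4741 with AD + DW, which overlapped, and the interaction was 1.48 ± 0.28. BC004022 was at 1.13 ± 0.22, the kinase gene Aatk at 1.53 ± 0.31, Arap3, which encodes a regulator of small GTPases, at 1.11 ± 0.22, and Sort1, the gene of the sorting receptor sortilin, at 1.21 ± 0.24. All of them had an adjusted p of 0.108, and their interactions kept the sign within either kind of spleen array. Picking them by p on these same arrays largely fixed that sign.

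**Figure D3:**
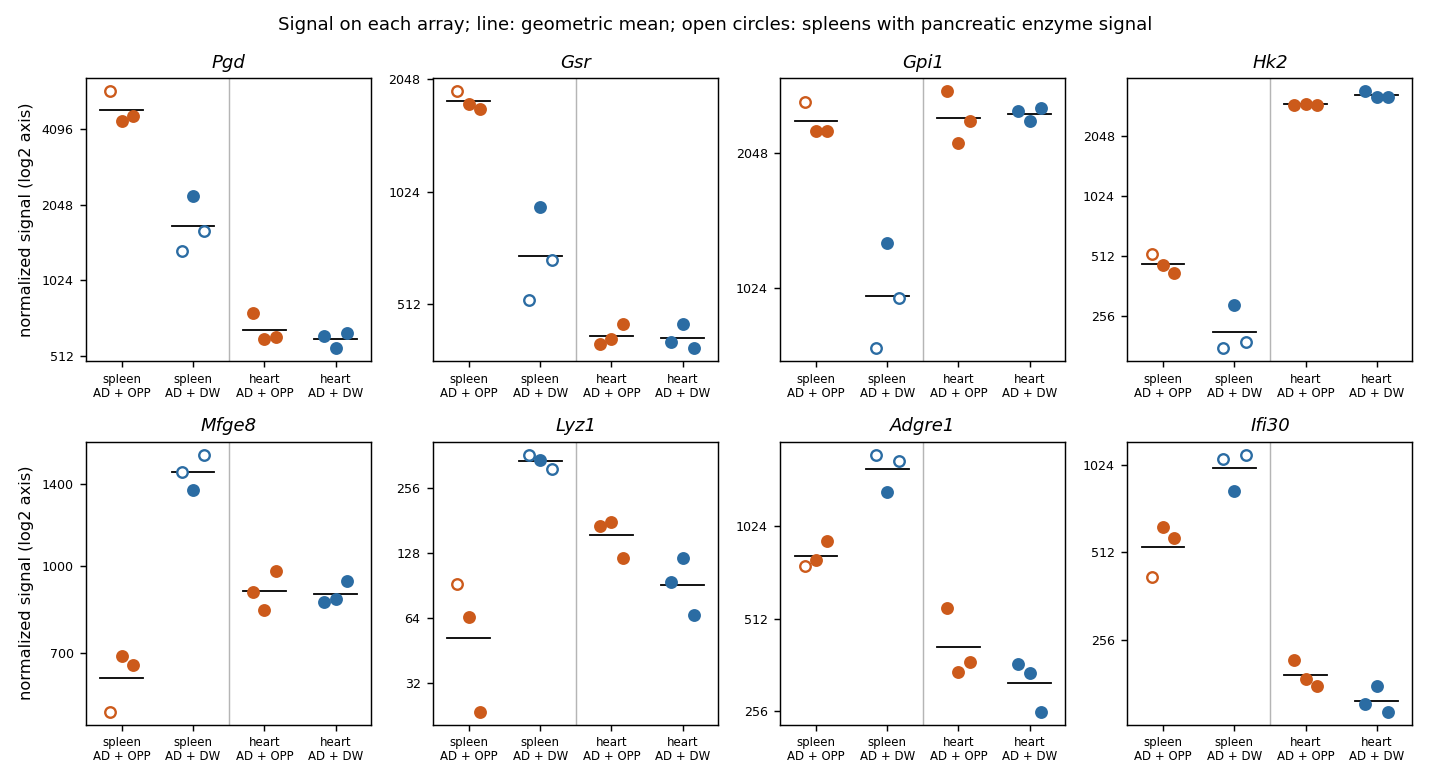
Normalized signal of 8 genes on each array (vertical log2 axis), with AD + OPP in orange, AD + DW in blue, the geometric mean of each group as a line and open circles for spleens with pancreatic enzyme signal. Pgd, Gsr, Gpi1 and Hk2 lay higher and Mfge8, Lyz1, Adgre1 and Ifi30 lower in all 3 AD + OPP spleens than in any AD + DW spleen.

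Macrophage and monocyte genes had the opposite pattern. All 9 tested had an interaction below 0 (against 59.2% of all tested probes) and 2 of them an unadjusted p under 0.01 (against 1.81% lower of all), with a median of −0.90 for the interaction, −0.59 for the spleen effect and 0.50 for the heart effect. Of the 9, 1 passed the heart filter through the AD + OPP arrays alone, so its heart effect was in part set by that filter. The median interaction was −1.55 within the spleens with pancreatic signal and −0.45, with 7 of 9 below 0, within those without it. The summed signal of all 23 macrophage markers was 11219, 14196 and 15409 in AD + OPP spleens, against 18959, 15661 and 23777 in AD + DW spleens. In the hearts it read 8185, 5924 and 5520 with AD + OPP and 4312, 6069 and 4362 with AD + DW, where AD + DW replicate 2 overlapped the AD + OPP arrays.

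Adgre1 encodes F4/80, the surface protein that marks mouse macrophages. Its signal was 762, 793 and 920 in AD + OPP spleens, against 1753, 1322 and 1668 in AD + DW spleens. AD + OPP hearts had signals of 553, 344 and 370, against 363, 341 and 255 in AD + DW hearts. The spleen groups were apart and the heart groups overlapped, for an interaction of −1.32 ± 0.29. Lyz1, the gene of a lysozyme found in mouse Paneth cells and some macrophages, had the lowest interaction of the genes named here, −3.47 ± 0.56 (95% interval −4.69 to −2.25; limma adjusted p = 0.107). It read 92, 64.8 and 23.6 in AD + OPP spleens, against 364, 343 and 313 in AD + DW spleens. Heart signals were 171, 177 and 121 with AD + OPP, against 93.5, 121 and 66.3 with AD + DW, so the groups did not overlap in either organ, though the nearest heart values almost met, and were ordered in opposite ways. Its near-identical neighbour Lyz2, the lysozyme of most macrophages, read 366, 3122 and 1576 in AD + OPP spleens and 1270, 1098 and 1463 in AD + DW spleens, which overlapped, and how far the probes of these genes cross-hybridize is not known, so the Lyz1 value is uncertain. Its size also rested on the scaling, at −1.63 scaled to the median (limma adjusted p = 0.00056) and −1.93 under quantile normalization (limma adjusted p = 0.016). The Lyz1 probe was not among those detected on every array. Its AD + OPP spleen signals were low, down to 23.6. A probe with such a low group can pass the spleen filter through the AD + DW arrays alone, where Lyz1 was high. How far that filter set the size and order of its spleen effect was not tested.

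Mfge8, whose secreted product bridges dying cells to phagocytes, gave the smallest p of all tested probes (2.8e-05, limma adjusted p = 0.107). It read 550, 693 and 666 in AD + OPP spleens, against 1474, 1366 and 1580 in AD + DW spleens. In the hearts it read 899, 835 and 979 with AD + OPP and 862, 875 and 939 with AD + DW. The spleen groups were far apart and the heart groups on each other, and the interaction was −1.23 ± 0.19 (95% interval −1.65 to −0.82), −1.49 within the spleens with pancreatic signal and −1.03 within those without it. Gas6, which encodes another bridge to dying cells, was at −1.03 ± 0.23. Complement genes of macrophages lay on the same side, with C1qb, a chain of the C1q trigger of complement, at −1.25 ± 0.45. C1qb read 277, 458 and 472 in AD + OPP spleens and 560, 503 and 992 in AD + DW spleens, and 416, 304 and 214 in AD + OPP hearts against 182, 285 and 179 in AD + DW hearts. Its spleen groups were apart and its heart groups overlapped. Of 11 complement and coagulation genes, 9 had an interaction below 0 (against 59.2% of all tested probes), with a median of −0.78 (−1.13 within the spleens with pancreatic signal and −0.25 within those without it), though the only one at an unadjusted p under 0.01 was positive.

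For antigen presentation on MHC class II, all 6 genes tested had an interaction below 0 (against 59.2% of all tested probes) and 1 an unadjusted p under 0.01 (against 1.81% lower of all), with a median of −0.99 from a spleen median of −1.22 and a heart median of −0.21. The median interaction was −1.42 within the spleens with pancreatic signal and −0.47 within those without it. H2-DMb2 encodes a chain of H2-DM, which loads peptides onto class II molecules. It read 169, 438 and 514 in AD + OPP spleens, against 903, 619 and 891 in AD + DW spleens. AD + OPP hearts had signals of 95.8, 65.2 and 77.8, against 48.3, 64.6 and 64.7 in AD + DW hearts, so both organs had groups apart, in opposite order, though the nearest heart values almost met at a low signal, and the interaction was −1.66 ± 0.49 (limma adjusted p = 0.219). H2-DMb2 was the 1 of the 6 that passed the heart filter through the AD + OPP arrays alone. Its heart order was thus in part set by that filter. Cd74, the gene of the invariant chain that guides class II molecules, read 1616, 3481 and 2177 in AD + OPP spleens and 6024, 4387 and 6088 in AD + DW spleens. Heart signals were 338, 407 and 259 with AD + OPP, against 405, 397 and 294 with AD + DW, which overlapped, for an interaction of −1.10 ± 0.38 (limma adjusted p = 0.288). B cell marker sums were lower on the same AD + OPP spleens, as given above, and their part in these values was not tested.

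Ifi30, which encodes a lysosomal thiol reductase that prepares antigens, lay on the same side. It read 421, 625 and 575 in AD + OPP spleens, against 1070, 831 and 1109 in AD + DW spleens. In the hearts it read 219, 188 and 179 with AD + OPP and 154, 178 and 145 with AD + DW. The groups did not overlap in either organ and were ordered in opposite ways, for an interaction of −1.20 ± 0.25. Cxcl13, the chemokine that draws B cells into follicles, read 402, 710 and 1060 in AD + OPP spleens and 1155, 838 and 1667 in AD + DW spleens, and 1078, 182 and 698 in AD + OPP hearts against 156, 109 and 265 in AD + DW hearts. Both organs had overlapping groups, and the interaction was −2.44 ± 0.82. The 10 interferon-stimulated genes all had an interaction below 0 with a median of −0.52 and 0 at an unadjusted p under 0.01, and 8 of 10 MHC class I and immunoproteasome genes did, with a median of −0.51. Of all tested probes, 59.2% lay below 0. Within the spleens with pancreatic signal the medians were −0.51 and −0.79, and within those without it −0.33 and −0.24.

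Genes of connective tissue and vessels were also described as lists. Of 18 genes of the extracellular matrix and its processing, 16 had an interaction below 0 (against 59.2% of all tested probes) and 3 an unadjusted p under 0.01 (against 1.81% lower of all), with a median of −0.70. Serpinh1, the collagen chaperone gene, was at −1.20, Bgn, which encodes the proteoglycan biglycan, at −0.90, and Sparc, whose product binds collagen, at −0.82. The list had a median interaction of −0.96 within the spleens with pancreatic signal and of −0.26, with 12 of 18 below 0, within those without it. Of 10 endothelial genes, 9 had an interaction below 0 (against the same 59.2%), with a median of −0.50, and only 5 did within the spleens without pancreatic signal. Of the genes with the smallest p on the negative side, Nostrin, which encodes a protein that binds endothelial nitric oxide synthase, was at −1.02 ± 0.22, Ccnd1, the cyclin D1 gene of cell cycle entry, at −1.64 ± 0.35, Asb2, which encodes a ubiquitin ligase subunit, at −1.49 ± 0.31, and the small GTPase gene Rab34 at −1.78 ± 0.39. The probes of Nostrin and Rab34 were not among those detected on every array. The part of the filter in their values was not tested. Cytosolic ribosomal protein genes had small values on 1 side, 53 of 57 below 0 (against 59.2% of all tested probes) with a median of −0.25. Under quantile normalization, however, 33 of 57 lay below 0 with a median of −0.04.

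**Figure D4:**
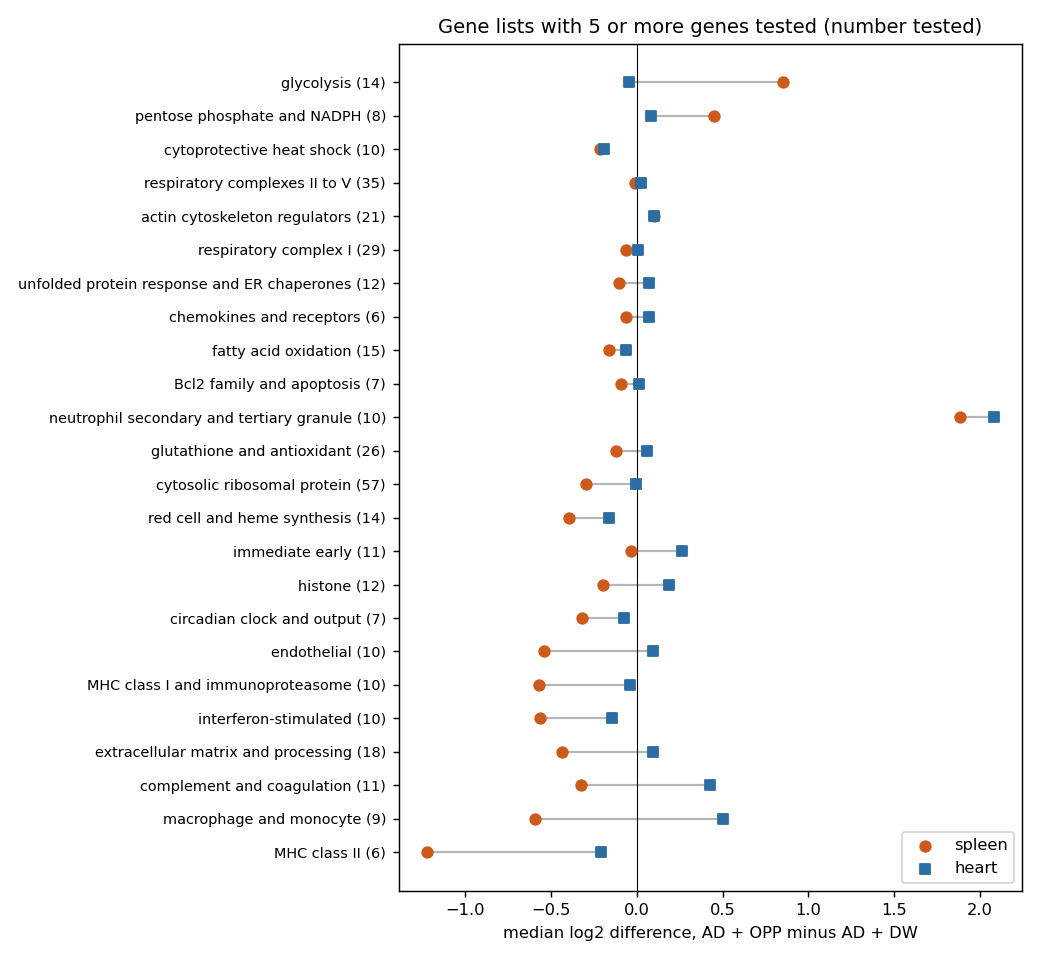
Median OPP effect of each gene list with 5 or more tested genes (horizontal axis, log2 of AD + OPP minus AD + DW), in the spleen as orange circles and in the heart as blue squares joined by a line, with the number of genes tested in brackets and lists ordered by median interaction. The glycolysis list had its spleen median of 0.85 to the right of its heart median, and the MHC class II and macrophage lists had theirs to the left. The neutrophil secondary granule list lay far right in both organs. Of its 10 genes, 6 passed the heart filter through the AD + OPP arrays alone, so its heart median was in part set by that filter.

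For only 11 of the 195 probes was the heart effect the larger. Igh-VJ558, an immunoglobulin heavy chain variable segment, read 48039, 50905 and 57158 in AD + OPP spleens and 50195, 51128 and 83169 in AD + DW spleens, while it read 3781, 4014 and 2241 in AD + OPP hearts, against 1006, 1768 and 1174 in AD + DW hearts. The spleen groups overlapped and the heart groups were apart, for an interaction of −1.55 ± 0.39 (limma adjusted p = 0.146), and a second probe gave −1.41. Variable segments are near-identical copies of each other, so which of them the probe read is uncertain. Zw10, which encodes a protein of the kinetochore, was another of the 11, with 112, 120 and 133 in AD + OPP hearts and 60.7, 85.4 and 83.3 in AD + DW hearts. Its spleen groups overlapped, and the interaction was −0.83 ± 0.24. Timp1, the gene of an inhibitor of matrix metalloproteinases, read 349, 377 and 177 in AD + OPP hearts and 135, 146 and 169 in AD + DW hearts for a spleen effect of −0.07 ± 0.21 and a heart effect of 0.93 ± 0.27. Rbm28, an RNA-binding protein gene, had its heart groups apart in the other direction, 85.4, 79.7 and 93.7 with AD + OPP against 128, 103 and 144 with AD + DW. Its interaction was 0.62 ± 0.23. Timp1 and Rbm28 were not among the 11. Genes such as these were picked for heart groups apart, a heart effect of at least 0.5 in size and a spleen effect under 0.25. That choice set their pattern.

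Some genes had the same order in both organs. AD + OPP and AD + DW arrays did not overlap in either organ, in the same direction, for 62 probes (1.22%), and in opposite directions for 40 (0.786%). Mgst1, which encodes a membrane-bound glutathione transferase, read 610, 750 and 809 in AD + OPP spleens, against 230, 434 and 534 in AD + DW spleens. AD + OPP hearts had signals of 1477, 893 and 981, against 473, 704 and 787 in AD + DW hearts. AD + OPP was the higher group in both organs, by 0.93 ± 0.31 in the spleen and 0.77 ± 0.25 in the heart, and the interaction was 0.16 ± 0.43 (95% interval −0.77 to 1.10), or −0.19 without spleen AD + DW replicate 1. H2-Eb1, an MHC class II chain, was the lower in AD + OPP in both organs, with 1523, 2584 and 1792 in AD + OPP spleens against 4611, 3878 and 5228 in AD + DW spleens, and 117, 162 and 127 in AD + OPP hearts against 279, 188 and 173 in AD + DW hearts. Its interaction was −0.60 ± 0.33 (95% interval −1.32 to 0.12). Fam107b was higher by 0.63 in the spleen and 0.71 in the heart, and a probe of Zfp36l1, the gene of a protein that destabilizes mRNA, was lower, with effects of −0.89 and −0.79. The brighter Zfp36l1 probe had effects of −0.92 in the spleen and −0.08 in the heart, so the probes of this gene disagree on the heart.

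Among the neutrophil granule genes, S100a8 and Hp had 95% intervals that held 0, and Anxa1 did not. Only 10 of the 26 measured were tested, and 6 of these passed the heart filter through the AD + OPP arrays alone, where they were high, so their heart effects were in part set by that filter. Of the 10 secondary and tertiary granule genes tested, 5 had an interaction above 0 and 5 below, with a median of −0.18, from a spleen median of 1.88 and a heart median of 2.08. S100a8, whose calcium-binding product is abundant in neutrophils, read 36702, 37493 and 42068 in AD + OPP spleens, against 19132, 35265 and 22623 in AD + DW spleens. Heart signals were 11426, 2902 and 4235 with AD + OPP, against 120, 7037 and 175 with AD + DW. The heart value of AD + DW replicate 2 lay among those of AD + OPP, and the interaction was −2.66 ± 1.61 (95% interval −6.16 to 0.84). It was −4.52 without heart AD + DW replicate 2 and −1.59 without heart AD + DW replicate 1. Hp, the haptoglobin gene, was at 2.31 ± 1.11, also with an interval that held 0. Anxa1 was at 1.34, or at 1.89 within the spleens with pancreatic signal and 0.35 within those without it. It was the only 1 of the 10 with an unadjusted limma p under 0.05, against 11% of all tested probes.

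The clock genes and the genes that the study itself singled out complete the account. Dbp, a transcription factor gene with a strong daily rhythm, read 40.8, 108 and 120 in AD + OPP spleens, against 372, 305 and 304 in AD + DW spleens, and 1216, 1094 and 1255 in AD + OPP hearts, against 2698, 1383 and 1335 in AD + DW hearts. Its groups were apart and in the same order in both organs, and the interaction was −1.48 ± 0.51. The Dbp probe was not among those detected on every array, and its AD + OPP spleen signals went down to 40.8. It may have passed the spleen filter through the AD + DW arrays alone, where it was high. How far that filter set its spleen effect was not tested. Nfil3, which encodes a repressor of the same sites, was at 1.11 ± 0.39, and its probe was not detected on every array either. Time of collection is not given in the labels. Of 10 genes named in the study for the spleen and tested here, 5 had an interaction above 0 and 5 below, with a median of −0.06, and since they were chosen on these arrays they are no independent evidence. Among them Cd59b, the gene of a complement inhibitor, was at −1.30 ± 0.31, and it read 61.7, 83.2 and 68.3 in AD + OPP spleens and 228, 219 and 186 in AD + DW spleens.

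Within the spleens that carried pancreatic enzyme signal and within those that did not, the named genes kept their direction and differed in size. Most of them were picked by p on these arrays, and the spleen groups did not overlap for 182 of the 195 probes. A kept direction was thus largely fixed by that choice, and only the sizes are compared. The interaction of Hk2 was 1.67 with the signal and 0.76 without it, that of Pkm 2.23 and 0.79, and that of Alas1 1.87 and 0.93. That of Cd74 was −1.77 with the signal and −0.54 without it, and that of H2-DMb2 −2.83 and −0.81. The values lay closer together for Fam160a2, at 1.57 with the signal and 1.27 without it, for Nostrin, at −1.02 and −1.03, and for Ccnd1, at −1.69 and −1.29. Lyz1 was farther from 0 without the signal, at −3.90, than with it, at −2.64. Of the other genes above, Gsr was at 1.66 with the signal and 0.88 without it, Tkt at 1.31 and 0.86, Adgre1 at −1.55 and −1.01, Ifi30 at −1.67 and −0.77, C1qb at −1.94 and −0.63, Cxcl13 at −3.43 and −1.59, Dbp at −2.52 and −0.90, Hp at 3.15 and 0.94, and Nfil3 at 1.51 and 0.46. Scaling of the unnormalized signal to the median brought a number of interactions nearer to 0 by over 1.5 times without turning them, to 0.90 for Fam160a2 and for Aatk, 0.85 for Hk2, 0.67 for BC004022, 0.54 for Nfil3 and 0.22 for Rbm28. On the negative side it gave −0.66 for Gas6, −0.75 for Serpinh1, −0.82 for C1qb and −0.99 for H2-DMb2. Both this scaling and quantile normalization did so for Ccnd1, at −0.89 and −0.99, Nostrin, at −0.56 and −0.42, Rab34, at −0.86 and −0.89, Zw10, at −0.40 and −0.39, Dbp, at −0.58 and −0.67, and Cd59b, at −0.62 and −0.58. The difference between the kinds of array was not tested, and each kind has a single array in 1 spleen group.

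**Figure D5:**
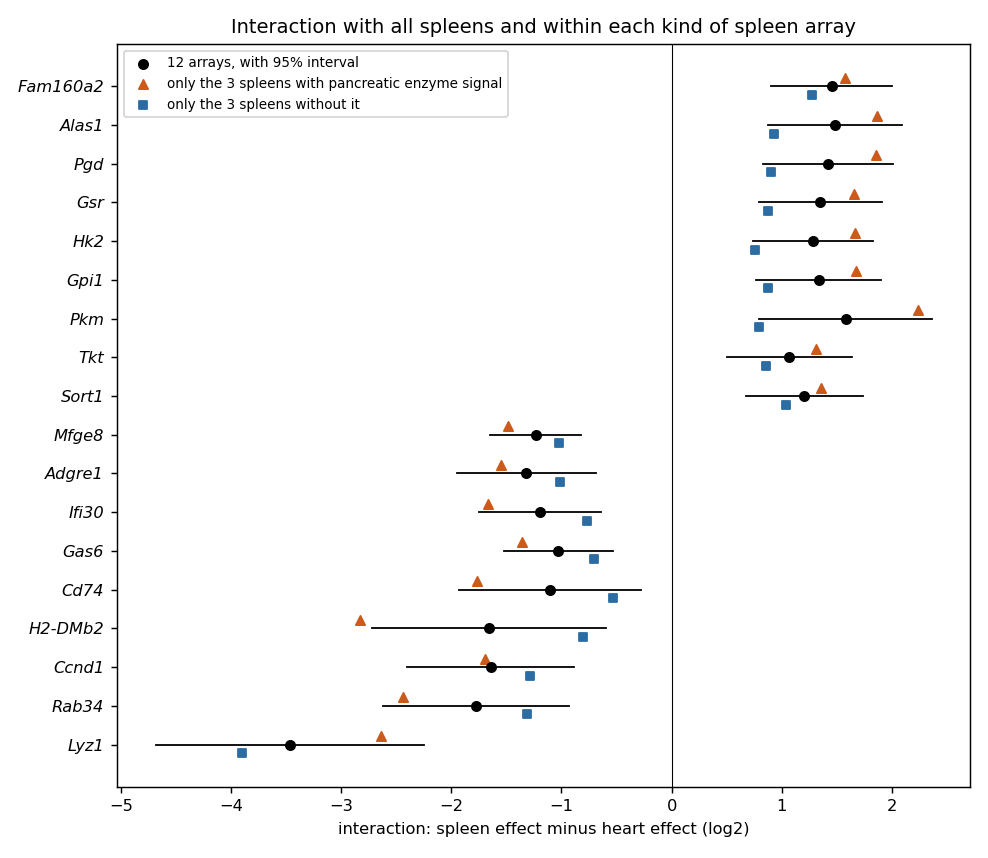
Interaction of 18 named genes (horizontal axis, log2) with all 12 arrays, as black points with 95% intervals, with only the 3 spleens carrying pancreatic enzyme signal (orange triangles) and with only the 3 without it (blue squares), always against the same 6 hearts. All values of a gene lay on the same side of 0, which picking the genes by p on these arrays largely fixed, and the triangles lay farther from 0 than the squares for each of these genes except Lyz1.

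Of the tested probes, 37 had a group with no detected array and 6 of these were among the 195, so that their fold in that organ is only bounded. Mtrf1, which encodes a mitochondrial release factor, was not detected in AD + OPP spleens and was at least 1.82-fold lower there than in AD + DW spleens. Fosl2, of the AP-1 transcription factors, was not detected in AD + DW spleens and was at least 1.13-fold higher in AD + OPP spleens. The bound sets the undetected group at the lowest detected signal of each array.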

How the data were processed

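Total RNA from spleens and hearts was hybridized to MouseRef-8 arrays with 1 colour. The authors deposited the signal intensity of each probe, background subtracted and on a linear scale, before and after rank invariant normalization in BeadStudio 1.5.1.3 (version from the submitters' processing notes), together with a detection p-value per probe. Before deposit, they had picked the RNA samples with the best integrity and left out arrays that clustering set apart. Each array had been rescaled linearly, by factors of 0.824 to 1.62 among spleens and 0.89 to 1.22 among hearts, with AD + DW replicate 1 of each organ at 1. The error model of the study was not repeated.

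Here, normalized signals under 10 were set to 10 and log2 transformed. The interaction was tested with limma 3.58.1 (statmod 1.5.0) in R 4.3.3, in 1 model of the 4 group means over the 12 arrays, as a two-sided test, with p-values adjusted over the 5092 probes by Benjamini-Hochberg and a threshold of 0.05. Effects within an organ, used to describe it, came from a limma fit of its 6 arrays. Errors are moderated SEs. The script was tested on simulated data. Precision is limited by the number of arrays.

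Of all probes, 19398 had 1 symbol in the platform annotation, 0 had several and 421 were named only through the study's tables; 4661 of the tested probes had a name, and unnamed probes were tested but not described. A list used the brightest probe of each gene. Named genes were, among probes with 1 symbol, detected in every group and with a mean of at least 100 in the higher group, the 10 per direction with the smallest p, up to 5 per direction with effects of at least 0.5 of opposite sign, of at least 0.5 in the heart and under 0.25 in the spleen, or of at least 0.5 in the same direction in both organs without overlap, up to 3 per list by p, and genes the study names. Other genes of the lists, Lyz2, Zfp36l1's brighter probe and the skin genes were picked with values in view. Some of the genes this rule gives are left out here. The members and lists were chosen with earlier results of these data known. Alternatives were another floor, filter, scaling, prior or array weights, all 19 arrays, a replicate block and each array left out. After the data were seen, the spleens with pancreatic signal were left out, kept alone or modelled. Both arrays that clustered apart from the rest of their group were then left out as well. Columns of the authors' own comparisons were not used.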

Additional observations from a re-analysis of the deposited data

Results flagged for a closer look

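For 5 genes named in the report the AD + OPP and AD + DW arrays did not overlap in either organ and were ordered in opposite ways, a pattern found for 40 of the 5092 probes (0.786%). Their interactions were 1.13 for BC004022, 1.28 for Hk2, −3.47 for Lyz1, −1.20 for Ifi30 and −1.66 for H2-DMb2. The interaction was tested with limma, and none passed the adjusted threshold. Among the 195 probes at an unadjusted limma p under 0.01, 20 had this pattern. Picking genes by p favours it, so the 5 are not read as a rare pattern. H2-DMb2 passed the heart filter through the AD + OPP arrays alone, and the Lyz1 probe was not among those detected on every array. BC004022 read 410, 395 and 389 in AD + OPP spleens against 235, 223 and 206 in AD + DW spleens, and 114, 114 and 120 in AD + OPP hearts against 120, 180 and 130 in AD + DW hearts, where the nearest values of the groups almost touched, as they did in the hearts for Lyz1 and H2-DMb2.

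Signals of other organs were found outside the tested probes. The summed exocrine pancreas signal was 266219 in spleen AD + OPP replicate 1, 349651 in spleen AD + DW replicate 1 and 995723 in spleen AD + DW replicate 3. On spleen AD + DW replicate 3, Lor, a gene of the outer skin layer, read 8131 and Krt10, a skin keratin gene, read 1688. Both were near 0 on the other spleen arrays.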

How the results depend on the processing

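Against 0 adjusted interaction calls, a floor of 32 gave 1, no detection filter 21 of 24048 probes, scaling to the median 26, quantile normalization 27, neqc 2, a trended and robust prior 8, array weights 4, all 19 arrays in 1 fit 1 and only the 3 spleens with pancreatic signal 294. With 1 array left out the count was 0 to 103. The 195 probes at an unadjusted p under 0.01 became 446 without the filter (205 higher, 241 lower), 84 without the spleens with pancreatic signal (53 and 31), 518 with only those spleens (390 lower) and 133 to 322 with 1 array left out. The lower ones numbered 59 in the fit of 19 arrays and 60 without both arrays that clustered apart from the rest of their group. With 1 array left out they numbered 47 to 177. All 195, which were picked by p on these same arrays, kept their sign in every alternative that tested them, except scaling to the median, where 193 did. The cause of these shifts was not tested.

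Within the spleen, the 0 adjusted calls became 230 in 1 fit over the 12 arrays, 4 without the spleens with pancreatic signal and 0 to 139 with 1 array left out, the highest without AD + DW replicate 2. The 302 probes at an unadjusted p under 0.01 became 465 in 1 fit, 180 with a term for that signal and 170 to 413 with 1 array left out. Within the heart, 21 became 13 to 72 with 1 array left out, the highest without AD + DW replicate 2.

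The sign turned for Mgst1 without spleen AD + DW replicate 1 (−0.19, with 0.42 the highest value when 1 array was left out), for Fosl2 scaled to the median (−0.067), for the circadian list without the spleens with pancreatic signal (median 0.072) and for the immediate early list without those spleens (0.061) and without spleen AD + DW replicate 3 (0.017, with −0.60 the lowest when 1 array was left out).

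The replicate numbers were not taken to pair the organs, since only 3 of 6 same-numbered pairs deviated together at a correlation over 0.1. These were 0.18, 0.12 and 0.19 in AD + DW, where pairs of different number gave −0.13 to −0.05 and each spleen correlated best with the heart of its own number, a hint from the data and not from the design. In AD + OPP they were −0.12, −0.03 and 0.07, against −0.26 to 0.22 for different numbers. With the number as a replicate block 1 probe passed, and with treatment and number as the block 0 passed.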

Other observations

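Genes of energy production in mitochondria, which dominate heart muscle, showed little difference between the organs. Of 29 genes of respiratory complex I, 12 had an interaction above 0 and 17 below, with a median of −0.04, and of 35 genes of complexes II to V, 16 lay above and 19 below, with a median of −0.01. Of 15 fatty acid oxidation genes, 5 lay above 0 and 10 below, with a median of −0.07, close to the −0.08 of all tested probes. Heat shock genes divided evenly, 5 of 10 on each side.

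Red cell and heme synthesis genes had an interaction below 0 for 12 of 14 (against 59.2% of all tested probes), with a median of −0.25. The 3 tested genes of megakaryocytes and platelets all lay above 0 (against 40.8% of all), with a median of 0.50. Skeletal muscle markers summed to 10435, 15603 and 11352 in AD + OPP hearts and to 22470, 7435 and 19777 in AD + DW hearts, which overlapped. Ins2, an insulin gene of pancreatic islets, read 192, −0.2 and 445 in AD + OPP spleens and 116, 5.5 and 1593 in AD + DW spleens, and it was looked up after the pancreatic enzyme signal had been seen.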
